A study of Cicer arietinum with 32 samples.

Results

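The 10 transcripts described here are MYB transcription factor transcripts of chickpea that were listed as specific to a single tissue or organ, leaving out those of the 20DAP seed and those of coexpression module M12. They were taken by ID from the lists used here, which are the first parts of longer lists of tissue-specific transcripts and of module members, so the 10 are not the full set of such MYB transcripts. In the part used, 12 of 1998 tissue-specific transcripts belonged to the MYB family. Both of the others were listed for 20DAP, none of the 12 stood among the M12 members used here, and the remaining 10 are described. Levels were read for all 38818 transcripts of the atlas, but membership could be read only for the listed part of them. The members were chosen by the study's TSI, a tissue specificity index explained below, and by their highest tissue. Per the study's methods that index rests on read counts over all tissues, while the TSI given below was recomputed from FPKM. Both come from the same libraries, so the height of a transcript in its own tissue is a description and carries no test.

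The atlas covered 32 tissues/organs of Cicer arietinum genotype ICC4958, an untreated single genotype raised in a culture room, a greenhouse or the field, with 94 RNA-seq libraries. The libraries were 3 biological replicates of each tissue/organ, or 2 for 20DAP and 30DAP, and only their average was used here. There is therefore 1 value per transcript and tissue, no spread, no test and no p-value. Levels are in FPKM, which scales fragments by transcript length and library size, for 31 tissues. The 20DAP values are estimated counts and are given apart. The vegetative tissues were root, root tip, root hair (RH, scraped from dark-grown seedlings), nodule (from mature field plants), whole germinating seedling (GS), shoot, shoot apical meristem (SAM), young leaf, mature leaf and bracteole. The reproductive ones were flower buds of increasing size (FB1 to FB4), flowers from closed to senescing (FL1 to FL5), calyx, corolla, androecium, gynoecium and pedicel, then podshell, seed coat, embryo, endosperm and whole seeds named by days after pollination (5DAP, 10DAP, 20DAP, 30DAP). The sources differ on whether floral organs came from partially opened or from unopened flowers.

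MYB proteins are transcription factors that bind DNA through repeats of the MYB domain, and they form one of the largest regulator families of plants. In Arabidopsis, family members are known for the patterning of root hair and hairless cells, for secondary wall and suberin formation, for anther development and pollen maturation, and for the control of flavonoid pigments and seed development. A bulk tissue averages all its cells, so few cells with much of a transcript and many cells with little of it cannot be told apart.

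Several checks touch the tissues in which the MYB transcripts were highest. The root hair gene RHS14 (Ca_TC00743), a pectate lyase-like gene of Arabidopsis root hairs, had 1025 FPKM in root hair, 4.63 in root tip and 0.09 in root. The other listed root hair gene, MRH1 (Ca_TC00473), stood at 0.17 FPKM in root hair and 43.7 in androecium. The single anther gene, MS5 (Ca_TC00953), which acts in male meiosis in Arabidopsis, was at 0.30 FPKM in androecium and reached at most 2.3 in any tissue. The sample titled as shoot carried the word root as its tissue in a further label. The title was followed, and the summed level of 9 photosynthesis transcripts was 2049 FPKM there against 41.9 in root and 1.85 in root hair, although 4 of the 9 were at 0 in shoot and only 3 reached 10 FPKM. The same sum was 19386 FPKM in nodule, but 17785 of it was Ca_TC32102 and 1600 Ca_TC31981, both at 0 in shoot. The 3 that reached 10 FPKM in shoot were Ca_TC00156, Ca_TC00866 and Ca_TC00867, at 283, 1727 and 38.5 there. They had 15, 22.7 and 3.42 FPKM in root and under 0.5 in nodule. By these 3 the shoot sample differed from root and nodule, whereas the sum over all 9 does not mark green tissue alone. No further check of the label was made. No marker list was used for endosperm, podshell or FB1.

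Root carried 2 further cautions. None of its values had more than 2 decimals, against 66.3% to 67.3% of the values of 29 other tissues, so the column may hold a single library or rounded averages, and which of these was not tested. The share of transcripts at 0 was 29.3% in root and 16.3% to 29.4% in the other 30 tissues in FPKM. Root values below are to be read with this in mind, above all those of Ca_TC08683 and Ca_TC01540.

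Each of the 10 MYB transcripts was highest in its listed tissue. Root hair held 3 of them (Ca_TC01765, Ca_TC06410 and Ca_TC09818), endosperm 2 (Ca_TC04206 and Ca_TC06384), and root (Ca_TC08683), germinating seedling (Ca_TC01540), podshell (Ca_TC01339), androecium (Ca_TC05902) and FB1 (Ca_TC07467) 1 each. Their highest levels ran from 1.25 to 139 FPKM with a median of 35.2. The level was at or above 20 FPKM for 7 and under 10 FPKM for 3, namely Ca_TC01540, Ca_TC05902 and Ca_TC07467. The tissue specificity index (TSI), which is 0 for equal expression in all tissues and 1 for expression in a single tissue, was 0.905 to 0.972 on log2(FPKM + 1) over 31 tissues. Of the 34063 transcripts with at least 0.5 FPKM in some tissue, 18% had a TSI of at least 0.9. The study's own TSI from the same libraries chose the members, so nothing is read from their own count.

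**Figure D1:**
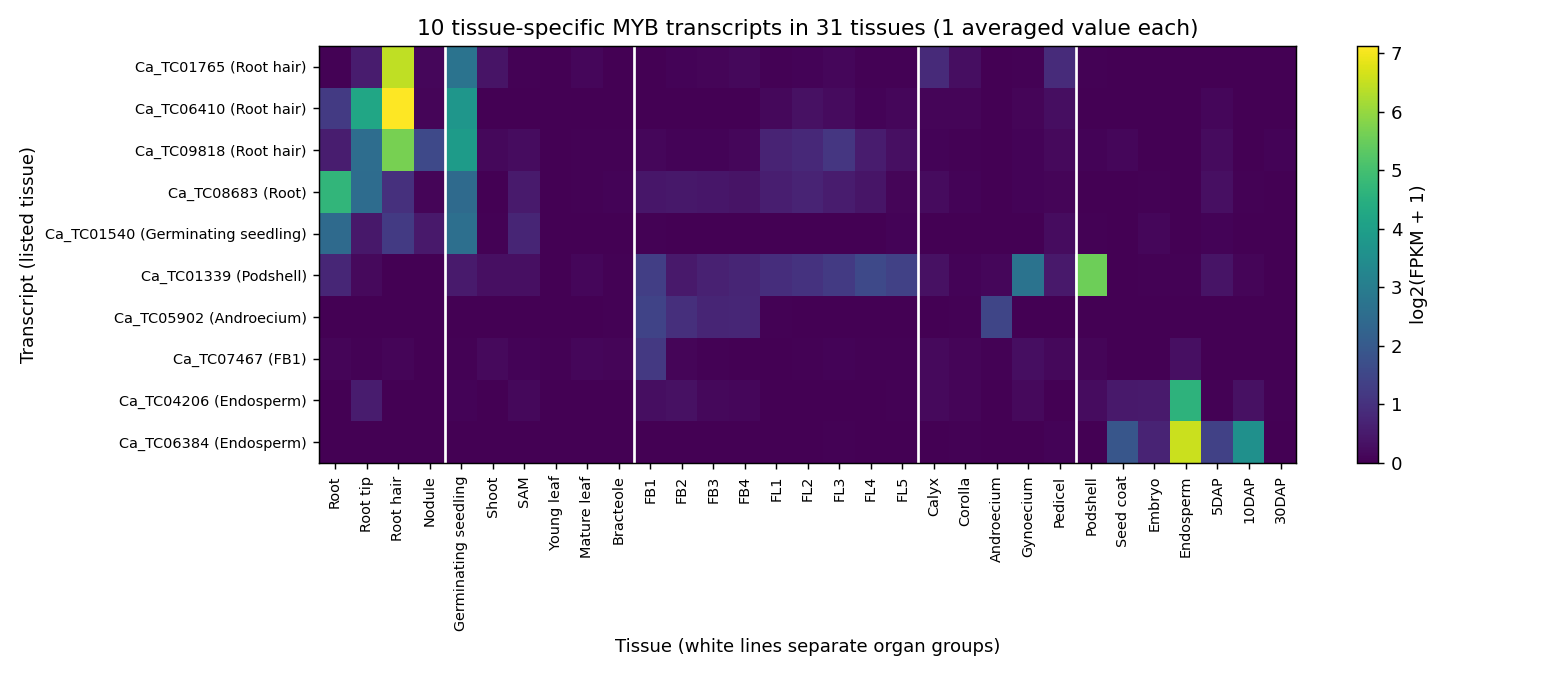
Levels of the 10 MYB transcripts (rows, listed tissue in brackets) in 31 tissues (columns), as log2(FPKM + 1) of 1 averaged value each; white lines separate root tissues, shoot tissues with the germinating seedling, flower stages, floral organs, and podshell with seed tissues. The 3 root hair transcripts also have colour in the germinating seedling, Ca_TC05902 has nearly the same colour in FB1 and androecium, and Ca_TC06384 is visible in 10DAP seed beside endosperm.

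How far the listed tissue stood from the next one differed between the transcripts. For 6 of the 10 the listed tissue was at least 4-fold above every other on FPKM + 1, compared with 7.94% of the 34063 transcripts. Choosing members by tissue specificity favours such gaps, here and in the pairs of tissues below. Nothing is read from these differences from the background. The ratio of the highest to the second-highest level ran from 1.05 for Ca_TC05902 to 50.9 for Ca_TC04206, with a median of 6.64. The listed tissue held between 30.3% and 90.6% of a transcript's summed FPKM over 31 tissues. The second-highest tissue lay in the same organ group as the listed one for 3 of 10 (Ca_TC06384, Ca_TC06410 and Ca_TC08683). Among all 6116 transcripts with a TSI of at least 0.9 that share was 43.1%. The germinating seedling was grouped with shoot tissues although it includes a root, and it was the second-highest tissue of Ca_TC01765 and Ca_TC09818. Podshell was grouped with seed tissues, and flower stages were kept apart from floral organs. Gynoecium for Ca_TC01339 (podshell) and FB1 for Ca_TC05902 (androecium) therefore counted as another group, so the count depends on the grouping.

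The root hair transcripts had the highest levels of the set along with the endosperm transcript Ca_TC06384. Root hairs are outgrowths of single epidermal cells that take up water and nutrients and, in legumes, meet rhizobia first. The MYB factor Ca_TC06410 had 139 FPKM in root hair, 17.6 in root tip, 12.4 in germinating seedling and 1.33 in root, and its flower stages lay between 0 and 0.257 FPKM. It was above 1 FPKM in root, root tip, root hair and seedling and under 0.3 FPKM in all other tissues. The family member Ca_TC01765 had 86.7 FPKM in root hair, 5.62 in germinating seedling, 0.847 in pedicel, 0.79 in calyx, 0.46 in root tip and 0.03 in root. Root hair held 90.6% of its summed level, the largest share of the 10, and its small floral signal sat in calyx and pedicel, the outer green parts of the flower. Ca_TC09818 had 49.7 FPKM in root hair, 14.003 in germinating seedling, 4.82 in root tip, 1.98 in nodule and 0.48 in root. It had the lowest TSI of the 3, at 0.919, and was the only one of them above 0.1 FPKM in nodule.

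The related tissues separated the 3 root hair transcripts. All 3 were past 4-fold over root and all 3 over root tip, where 6.26% and 6.25% of the transcripts tested were so. Only Ca_TC01765 and Ca_TC06410 were past 4-fold over germinating seedling, where the background was 4.75%. Levels in other tissues can be set beside the 383 transcripts with a TSI of at least 0.9 that were highest in root hair, which were 1.12% of all tested. Their median level in germinating seedling was 2.31% of that in root hair, whereas Ca_TC09818 reached 28.2%, a percentage met or passed by 19 of them. Ca_TC06410 reached 8.94% and Ca_TC01765 6.48%, both above that median. In root tip the median was 1.54%, and Ca_TC06410 had 12.6%, Ca_TC09818 9.71% and Ca_TC01765 0.530%. In root the median was 0.690%, with Ca_TC09818 at 0.966%, Ca_TC06410 at 0.958% and Ca_TC01765 at 0.0346%. Ca_TC01765 was thus below the median of root hair transcripts in both root and root tip and above it in the seedling, while the others were above it in all 3 tissues. In root, however, all 3 lay between the quartiles of 0% and 4.56%, and the others were close to the median. Ca_TC01765 also lay between the quartiles in root tip, which were 0.276% and 7.16%, and in germinating seedling, where they were 0.394% and 7.46%. By level in root hair, Ca_TC06410 ranked 47, Ca_TC01765 70 and Ca_TC09818 96 among the 383.

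**Figure D2:**
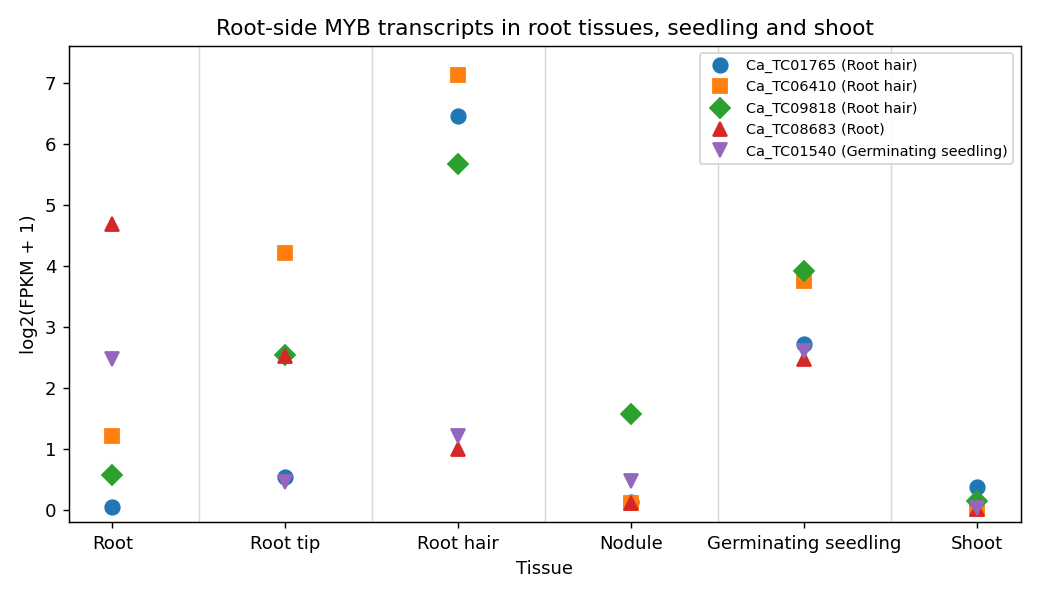
Levels of the 5 MYB transcripts listed for root hair, root or germinating seedling in root tissues, germinating seedling and shoot, as log2(FPKM + 1), 1 averaged value per point. Ca_TC08683 (24.9 FPKM) and Ca_TC01540 (4.53 FPKM) are the highest in root, and all 5 are at or under 0.3 FPKM in shoot.

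Ca_TC08683, the MYB transcript listed for root, had 24.9 FPKM in root, 4.76 in root tip, 4.56 in germinating seedling and 0.99 in root hair. It was past 4-fold over root tip, root hair and germinating seedling, where 7.41%, 14.3% and 4.1% of transcripts were so. Root tip stood at 19.2% of root and germinating seedling at 18.3%, while the medians of the 308 transcripts specific to root were 3.14% and 2.56%. The order of root and root hair was opposite to that of the root hair transcripts: Ca_TC08683 was 25.1 times as high in root as in root hair. Ca_TC08683 ranked 62 by level in root among those 308, which were 0.904% of all tested. In flower stages it was low but never at 0, from 0.063 in FL5 to 0.647 FPKM in FL2.

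In the part of the annotation used here, Ca_TC01540 was the only member with a named best match, to MYB68 of Arabidopsis, a gene known there from roots. It was listed for germinating seedling, with 5.07 FPKM, but root was at 4.53, and root hair (1.31) and SAM (0.67) followed. The seedling-to-root ratio was 1.12, so the listed tissue and root could not be set in order without replicate values. Among the 87 transcripts specific to germinating seedling, 0.255% of all tested, whose median in root was 0.883% of the seedling level, Ca_TC01540 had 89.3%, and 1 other was as high. It was past 4-fold over shoot, which had 0.027 FPKM and where 5.14% of transcripts were so, and not over root, where 6.52% were.

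A small signal in flower stages was seen for 3 of the root-side transcripts. Ca_TC09818 had 0.083 FPKM or less in the 4 bud stages, then 0.643 in FL1, 0.77 in FL2, 1.2 in FL3, 0.447 in FL4 and 0.233 in FL5. The highest flower stage was FL2 for both Ca_TC06410 (0.257 FPKM) and Ca_TC08683 (0.647 FPKM), but Ca_TC08683 also had 0.297 to 0.387 FPKM in the bud stages, about as much as in FL4 (0.317). None of the 3 exceeded 0.2 FPKM in any dissected floral organ, pedicel included. These levels are low, most of them under the 0.5 FPKM taken as expressed, and are given as values only.

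The endosperm nourishes the embryo and in chickpea is consumed as the cotyledons fill. Ca_TC06384 had 93.5 FPKM in endosperm, 11.1 in 10DAP seed, 2.72 in seed coat, 1.60 in 5DAP seed and 0.643 in embryo. It had at most 0.043 FPKM in the tissues that are not of the seed, podshell included. Ca_TC04206 had 23.2 FPKM in endosperm, then 0.457 in root tip, 0.437 in embryo, 0.39 in seed coat and 0.26 in 10DAP seed, with 0.243 in FB2. The next 4 tissues of the first were all of the seed, and the second had traces in root tip and flower buds as well as in the seed. The whole 10DAP seed, the stage from which the endosperm was dissected, separated them: it reached 11.8% of the endosperm level for Ca_TC06384 and 1.12% for Ca_TC04206. The median over the 1274 transcripts specific to endosperm, 3.74% of all tested, was 1.53%, and 147 of the others were as high as Ca_TC06384.

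Between the whole seeds, Ca_TC06384 was 6.91 times as high at 10DAP as at 5DAP, and it was at 0 at 30DAP, where Ca_TC04206 had 0.03 FPKM. In seed coat Ca_TC06384 had 2.91% and Ca_TC04206 1.68% of the endosperm level, with a median of 0.793% for endosperm transcripts. In embryo the order was the other way, at 0.688% and 1.88% with a median of 1.66%. Both were past 4-fold over embryo, seed coat and 10DAP seed, where 8.3%, 8.68% and 7.07% of transcripts were so. By level in endosperm Ca_TC06384 ranked 153 and Ca_TC04206 306 of 1274. In the 20DAP seed, as estimated counts, Ca_TC04206 had 10 and Ca_TC06384 had 2, and the other 8 transcripts had at most 1. These counts cannot be set beside FPKM.

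**Figure D3:**
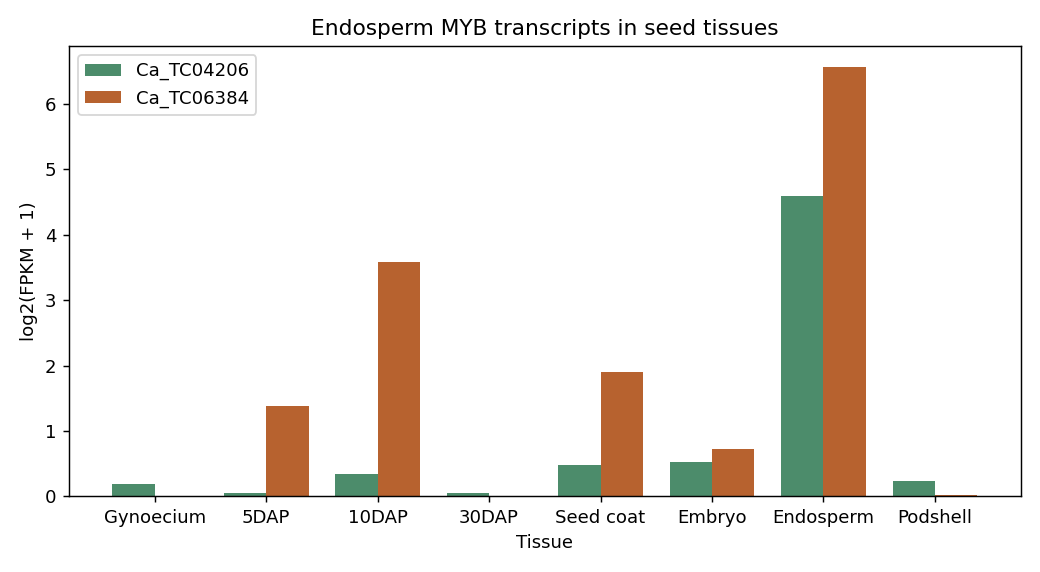
Levels of the 2 endosperm MYB transcripts in gynoecium, whole seeds, dissected seed parts and podshell, as log2(FPKM + 1), 1 averaged value per bar. Ca_TC06384 has 11.1 FPKM in 10DAP seed and 1.60 in 5DAP seed, and Ca_TC04206 has under 0.5 FPKM everywhere but in endosperm.

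The podshell is the fruit wall, which develops from the ovary wall of the gynoecium. Ca_TC01339, listed for podshell, had 45.6 FPKM there, 5.62 in gynoecium, 1.95 in FL4, 1.58 in FL5 and 1.52 in FB1. Podshell and gynoecium were its 2 highest tissues, apart by 8.12 times. It had the lowest TSI of the 10, at 0.905, and was above 0.4 FPKM in every flower stage. From FB2 onwards each stage was above the one before it up to FL4, at 0.407, 0.57, 0.653, 0.893, 1.05, 1.34 and 1.95 FPKM. FL4 was thus 4.79 times FB2, while the other floral organs lay between 0.053 FPKM in corolla and 0.397 in pedicel. The dissected seed parts were nearly empty, with 0.007 FPKM in seed coat, 0.02 in embryo and 0.03 in endosperm.

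Ca_TC01339 ranked 3 by level in podshell among the 151 transcripts specific to it, which were 0.443% of all tested. Gynoecium was at 12.3% of podshell, whereas the median of the 151 was 0%, and 15 others were as high. It was past 4-fold over gynoecium, seed coat and calyx, where 6.05%, 8.76% and 2.45% of transcripts were so.

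The androecium transcript Ca_TC05902 was low, at 1.81 FPKM, and nearly as high in the smallest buds. FB1 had 1.72 FPKM, FB2 0.943, FB3 0.673 and FB4 0.69, and the 5 flower stages had 0.020 FPKM or less, with 0 in FL2 and FL4. It was at 0 in 19 of 31 tissues, gynoecium among them. Bud stages and androecium together carried it, while whole flowers, which contain the androecium, had almost none of it, from the closed FL1 onwards. FB1 reached 95.4% of the androecium level, and none of the other 678 transcripts specific to androecium reached as much. The 679 were 1.99% of all tested, and their median in FB1 was 0.863%. FB4 reached 38.2% with a median of 13.6%, and FL2 0% with a median of 0.967%. The FB1 and FL2 comparisons were chosen after the levels had been seen.

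The FB1 transcript Ca_TC07467 had 1.25 FPKM in FB1, the lowest peak of the 10, and 0.233 in endosperm, 0.21 in gynoecium, 0.13 in calyx and 0.073 in FB2. It was expressed at 0.5 FPKM or more in FB1 only, and FB1 was 17.1 times FB2, the next bud stage. Among the 192 transcripts specific to FB1, 0.564% of all tested, FB2 was at a median of 8.23% of FB1, and it was at 5.84% for Ca_TC07467. Neither Ca_TC05902 nor Ca_TC07467 was past 4-fold in any of its 3 related pairs. At peaks of 1.81 and 1.25 FPKM, a 4-fold difference on FPKM + 1 could not be reached. In the background, 7.3% of transcripts were past it for androecium over gynoecium, 7.27% over corolla and 3.49% over FB4. For FB1 it was 3.48% over SAM, 0.616% over FB2 and 16% over androecium. Over all members, 21 of 29 pairs of a listed and a related tissue were past 4-fold, and these 6 were among the 8 that were not.

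**Figure D4:**
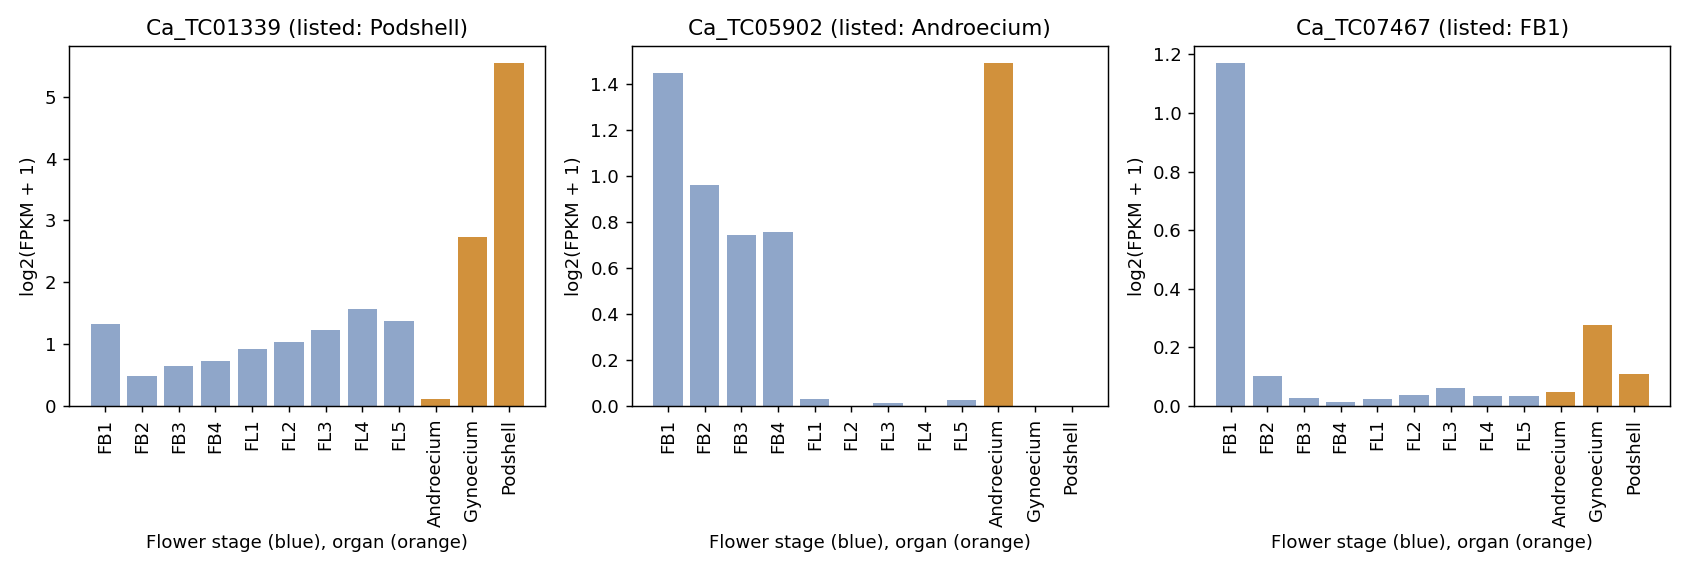
Levels of Ca_TC01339, Ca_TC05902 and Ca_TC07467 in the bud and flower stages (blue) and in androecium, gynoecium and podshell (orange), as log2(FPKM + 1), 1 averaged value per bar and a separate vertical scale for each transcript. Ca_TC01339 is highest in podshell (45.6 FPKM), Ca_TC05902 is seen in buds and androecium only, and Ca_TC07467 has 1.25 FPKM in FB1 and 0.073 or less in every later stage.

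The likeness of the profiles is given by Pearson's r of log2(FPKM + 1) over 31 tissues, a description whose points share the assembly and the listed tissue that chose the transcripts. Of the 45 pairs, 5 had an r of at least 0.7, all between transcripts with shared high tissues, and the highest of the rest was 0.611. None of the 5 reached 0.7 by Spearman's rho, by which the only pair to do so was Ca_TC08683 and Ca_TC09818 (0.734). The root hair transcripts gave 3 of the 5, at 0.946 (Ca_TC06410 and Ca_TC09818), 0.884 (Ca_TC01765 and Ca_TC06410) and 0.884 (Ca_TC01765 and Ca_TC09818). Leaving root hair out, these were 0.875, 0.683 and 0.747. The endosperm pair had 0.863, and 0.422 without endosperm. Ca_TC08683 and Ca_TC01540 had 0.836, and 0.456 without root and germinating seedling.

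Leaving out the listed tissues also brought some pairs closer, most of all Ca_TC08683 and each of the root hair transcripts. Ca_TC08683 and Ca_TC06410 had an r of 0.510 over 31 tissues and 0.947 over the 29 without root and root hair. For Ca_TC08683 and Ca_TC09818 it was 0.443 and 0.889, and for Ca_TC08683 and Ca_TC01765 0.230 and 0.670. Outside the tissues they were listed for, Ca_TC08683, Ca_TC06410 and Ca_TC09818 were highest in root tip and germinating seedling. Ca_TC01765 had 5.62 FPKM in germinating seedling but 0.46 in root tip, below pedicel (0.847) and calyx (0.79). No pair was strongly opposed, the lowest r being -0.19, and 30 of the 45 were below 0.

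**Figure D5:**
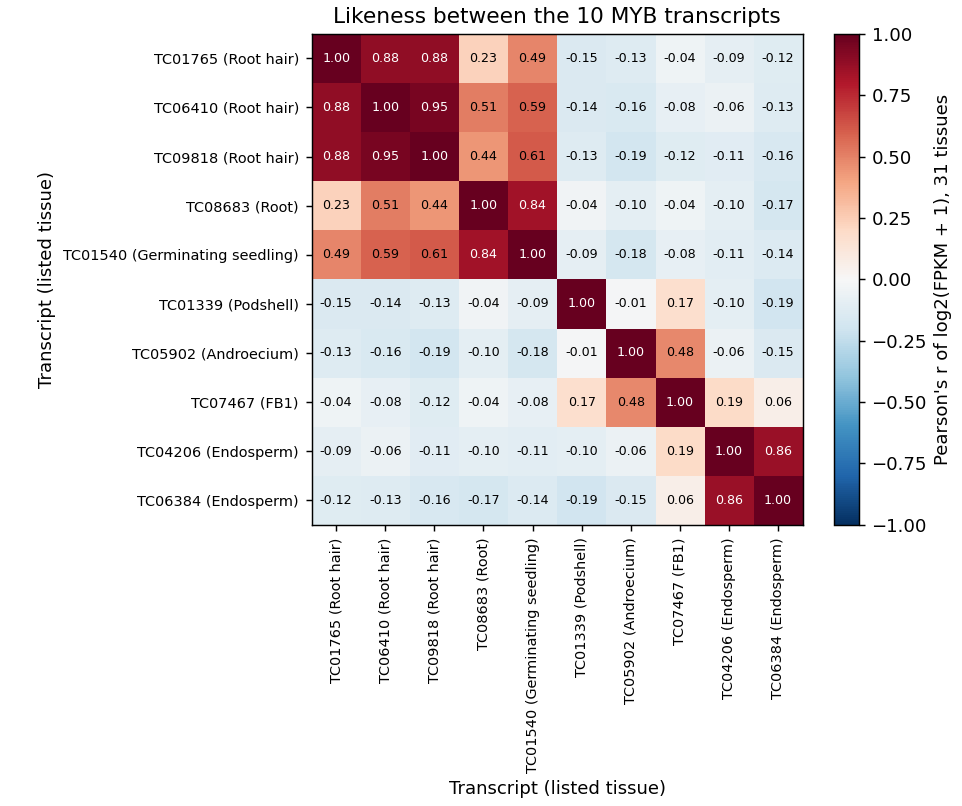
Pearson's r of log2(FPKM + 1) over 31 tissues between the 10 MYB transcripts, with each transcript's listed tissue in brackets. The 3 root hair transcripts form a block of 0.88 to 0.95, the endosperm pair has 0.86, and the root and germinating seedling transcripts have 0.84.

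The transcripts most like each member were taken from 32421 that reached 1 FPKM in some tissue. For all 10 members the closest transcript had its highest level in the member's listed tissue. That tissue chose the members and weighs on r, so nothing is read from this. Without it, r with the closest transcript was 0.658 for Ca_TC01339, 0.730 for Ca_TC04206 and 0.448 for Ca_TC07467. For the other members it was 0.891 to 0.984. The closest to Ca_TC01540 was Ca_TC01625 (r = 0.954), annotated as phototropin 1 and listed as a lncRNA, with 1.4 FPKM in germinating seedling. The closest to Ca_TC09818 was Ca_TC00986 (0.952), a FAD-binding Berberine family protein with 65.6 FPKM in root hair, followed by the MYB transcript Ca_TC06410 itself. The part of the annotation used here described only those 2 of the 30 nearest transcripts. Ca_TC01439, the third closest to Ca_TC06410 at 0.976, had 7370 FPKM in root hair. Among those of Ca_TC07467 was the WRKY transcript Ca_TC04703 (0.945), with 2.55 FPKM in FB1.

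The number of transcripts with an r of at least 0.9 differed widely between members. It was 856 of 32420 (2.64%) for Ca_TC04206 and 296 (0.913%) for Ca_TC06384, the endosperm transcripts. For Ca_TC01765 it was 144 (0.444%), for Ca_TC05902 95 (0.293%), for Ca_TC06410 66 (0.204%) and for Ca_TC07467 64 (0.197%). Ca_TC08683 had 20 (0.0617%), Ca_TC09818 19 (0.0586%) and Ca_TC01540 17 (0.0524%). Ca_TC01339 had none, its closest being Ca_TC31377 at 0.881. The podshell transcript thus had no match at this threshold, and the endosperm transcripts had the most. Transcripts specific to endosperm numbered 1274 and those specific to podshell 151, and whether the counts follow this was not tested. Without endosperm, the 3 transcripts closest to Ca_TC04206 had an r of 0.657 to 0.730.

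The nearest transcript to Ca_TC05902, Ca_TC31514, kept its likeness without androecium (0.985 over 31 tissues, 0.984 over 30). It had 22.6 FPKM in androecium, well above the 1.81 of the MYB transcript. The second, Ca_TC01346 (0.972), was highest in FB1, with 5.56 FPKM there and 2.96 in androecium. Both were picked for their likeness to Ca_TC05902, so a shared pattern follows from the choice and nothing is read from it. For Ca_TC07467 the closest transcript, Ca_TC13708, had 0.947 over 31 tissues and 0.448 without FB1.

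The parts of the lists used here held 17 other MYB transcripts, by annotation, module or the 20DAP list, which are not the whole family. Over 31 tissues none had a TSI of at least 0.9; their range was 0.417 to 0.878, with a median of 0.761. The selection set this difference from the members, and for the 2 listed for 20DAP so did leaving out that tissue. With 20DAP included as deposited, their TSI was 0.933 (Ca_TC03120) and 0.907 (Ca_TC05094). The 17 reached 0.5 FPKM in 3 to 29 tissues (median 14), and the members in 1 to 11 (median 4.5). Just outside the threshold stood Ca_TC05094 at 0.878 (3.98 FPKM in endosperm) and Ca_TC03120 at 0.866, both listed for 20DAP, and just inside stood Ca_TC01339 at 0.905 and Ca_TC05902 at 0.909.

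In 12 of the 17 the highest tissue was a flower stage or floral organ. The lists set much of this, since 7 of the 17 were taken as members of M12 and all 7 were highest in such a tissue, as were 5 of the other 10. Root tissues were highest for 3 of the 17. MYB102 (Ca_TC00293), known in Arabidopsis from wounding and osmotic stress, had 104 FPKM in root hair, between Ca_TC01765 and Ca_TC06410, but also 41.7 in SAM and 36.4 in germinating seedling. A second transcript described as MYB102-like (Ca_TC02066) had 6.05 FPKM in root hair and 4.28 in shoot. MYB108 (Ca_TC01026), known from stamen maturation in Arabidopsis, had 16.3 FPKM in androecium and 11.2 in 5DAP seed. MYB46 (Ca_TC01447), a switch of secondary wall formation in Arabidopsis, was highest in podshell, at 3.53 FPKM, with 2.19 in bracteole. The M12 transcript Ca_TC04002 had 58.0 FPKM in root hair, above Ca_TC09818, and 234 in FL2.

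The part of the position list used here covered 3 of the 10, on chromosome 1 of the kabuli genome v1.0, where that list begins, so nothing is read from the shared chromosome. Ca_TC01339 lay at 10454093 to 10456268, Ca_TC01540 at 11837775 to 11839626 and Ca_TC01765 at 13534909 to 13536672. Exons and strand were not used here. No other listed transcript overlapped any of them, and the nearest listed neighbours, 2991 to 11922 bases away, included Ca_TC01764, which stayed at or under 0.09 FPKM. The other 5 had an r of -0.15 to 0.21 with the MYB transcript beside them, and each was highest in another tissue than that MYB transcript.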

How the data were processed

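RNA-seq reads of 94 libraries from 32 tissues/organs were, per the study's methods, filtered with NGS QC Toolkit, aligned with bowtie2 to the study's own assembly and quantified with RSEM. The authors deposited 1 average per transcript and tissue, as FPKM in 31 tissues. The 20DAP values carry the same heading, but they sum to 29579443 and 22.2% of those above 0 are whole, so they were taken to be estimated counts, deposited by the authors as RSEM gave them, and kept out of the calculations over tissues except as an alternative. FPKM sums ran from 597153 to 959753. Mapped depth per library was not used here, and an average without its replicates carries no error.

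TSI was Tau on log2(FPKM + 1) with a threshold of 0.9. A transcript was tested when it reached 0.5 FPKM in at least 1 tissue. A 4-fold difference was a log2 difference of FPKM + 1 of 2. Likeness used transcripts of at least 1 FPKM. The rule for named transcripts took all 10 members, for each the 3 transcripts nearest in Pearson's r, and the other listed MYB transcripts with a gene name. Further transcripts of the nearest and family lists (Ca_TC05094, Ca_TC03120, Ca_TC04002) were named after their values were seen. The members and lists were chosen with earlier results of these data known. Family, module, description and position came from the study's sheets, of which the first parts were used here. Scripts in Python 3.11.15 with numpy 2.4.6 and pandas 2.3.3 were tested on simulated data. Alternatives were the pseudocount (log2(FPKM / 0.1 + 1)), the TSI threshold and scale, the expression minimum, normalization, the correlation measure, the inclusion of 20DAP and, chosen after seeing the data, leaving out root.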

Additional observations from a re-analysis of the deposited data

How the results depend on the processing

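No paired analysis was possible because each tissue has 1 averaged value, and for the same reason no replicate could be left out. All 10 transcripts kept a TSI of at least 0.9 with untransformed FPKM, with either other expression minimum, with tissues scaled to a common sum and with 20DAP included in either form. The count was 4 with a pseudocount of 0.1 in place of 1 and 3 at a threshold of 0.95. With quantile normalization it was 8, Ca_TC01540 being at 0.899 and Ca_TC07467 at 0.893. For the other listed MYB transcripts the count of 0 became 2 with 20DAP included as deposited and 2 at a threshold of 0.85. The 5 pairs with an r of at least 0.7 became 1 with Spearman's rho, a pair that was not among the 5 (Ca_TC08683 and Ca_TC09818, 0.734), and 8 with root left out, an alternative chosen after seeing the data. Over all alternatives, 5 to 7 members were at least 4-fold above every other tissue, 2 to 4 had the second-highest tissue in the same organ group, and 15 to 26 pairs of tissues were past 4-fold. The 15 came from leaving out root, which removes pairs. Levels near or under 1 FPKM, as for Ca_TC05902, Ca_TC07467 and the flower values of the root-side transcripts, have no error attached and their order is uncertain.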
